A study of Mus musculus with 24 samples.

Results

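Glucocorticoid-responsive genes are a set of 8 genes, chosen by name as the hormone's receptor and widely used transcriptional readouts of it: Nr3c1, Fkbp5, Tsc22d3, Sgk1, Zbtb16, Klf9, Errfi1 and Ddit4. They are 8 of the 54232 gene identifiers counted, and all 8 passed the filter on low counts that left 20275 genes for testing. Glucocorticoids (corticosterone in mice) enter cells and bind the glucocorticoid receptor, which leaves its chaperone complex for the nucleus and switches genes on or off at glucocorticoid response elements. The hormone's daily rise before the active phase is a known systemic time cue that reaches peripheral clocks, partly through Per1, itself a receptor target. In the eye, steroid signalling is known for effects on inflammation and on ion and fluid transport.

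The retinal pigment epithelium (RPE), the pigmented layer that engulfs shed photoreceptor outer segments, was cut from frozen eyes by laser capture, and its RNA was sequenced. All mice were males of 6 weeks on a C57BL/6/J x 129 SvEvBrd background. KO names the libraries labelled Per1-/-Per2Brdm1, altered at the clock genes Per1 and Per2 in the whole animal, and WT the wild-type libraries. Each genotype was sampled at circadian times CT19, CT22, CT1 and CT10, with 3 libraries in each of the 8 groups, and 5 of the 24 libraries (4 KO, 1 WT) pooled 2 eyes. The labels do not say that libraries came from different animals, and the tests therefore rest on variation among libraries, part of which may be technical.

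Libraries held 16245067 to 32066263 counts. Counts over the whole Per1 and Per2 genes were higher in KO on the genotype average (log2 1.23 and 1.79), so they do not check the label, and which exons the reads covered was not analysed here. All 17 RPE markers were tested, 1 of them at 0 in some library, with a summed level of 37500 to 72400 CPM (counts scaled to the size of each library) per library. Transcripts of neighbouring rods were abundant too: all 19 rod markers were tested, none of them at 0 in any library, with sums of 30400 to 114000 CPM in KO and 21400 to 97400 CPM in WT. At CT1 the sums were 30400, 33800 and 36000 CPM in KO, against 69000, 76800 and 97400 CPM in WT, with no overlap. At CT22 they were 36000, 54200 and 114000 CPM in KO, against 21400, 25000 and 46700 CPM in WT, and overlapped. In such bulk samples, a change in the number of cells of a type and a change in RNA per cell cannot be told apart.

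Per kilobase of exon, the scale on which different genes can be compared, the serum- and glucocorticoid-regulated kinase Sgk1 was the highest of the 8 and Zbtb16 the lowest. Means over the 24 libraries were 185.7 CPM per kb for Sgk1, 59.5 for Ddit4, 25.5 for Klf9, 10.5 for Tsc22d3, 10.02 for Errfi1, 8.53 for Nr3c1, 1.99 for Fkbp5 and 0.585 for Zbtb16. Within this order, Tsc22d3, Errfi1 and Nr3c1 lay close together. Group means of Tsc22d3 ran from 6.93 to 14.0 CPM per kb, those of Errfi1 from 8.10 to 11.3 and those of Nr3c1 from 7.70 to 9.23, so these neighbours were not separated beyond their spread over groups.

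**Figure D1:**
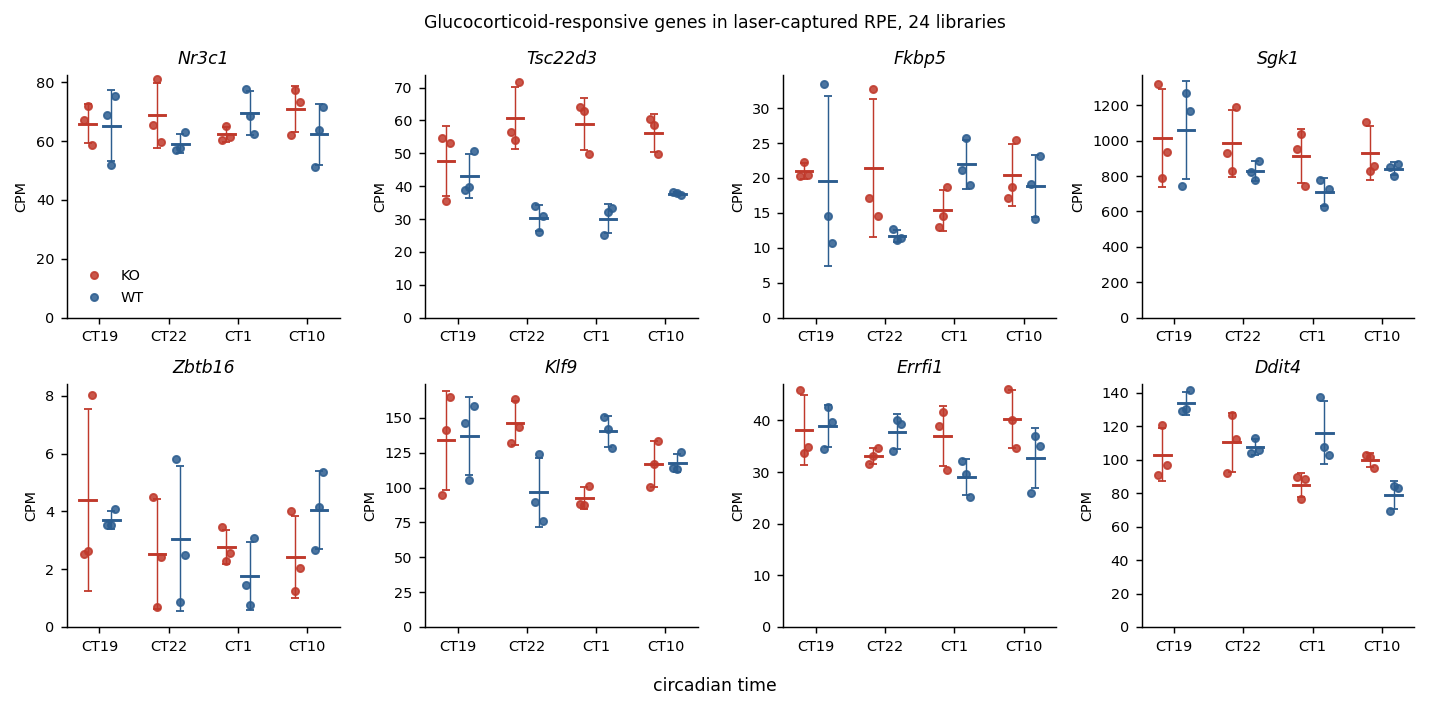
Level of each of the 8 genes in CPM (counts scaled to library size) in each library, by circadian time, KO (red, left) and WT (blue, right). Points are libraries, bars the mean and SD of 3 libraries. Tsc22d3 lies higher in every KO library than in any WT library at CT22, CT1 and CT10. Fkbp5 and Klf9 have KO above WT at CT22 and below it at CT1, and Ddit4 has KO below WT at CT19 and CT1 and above it at CT10. Of all genes tested, 9.27% at CT19, 12.8% at CT22, 24.7% at CT1 and 30.2% at CT10 did not overlap either.

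Of the 8 genes, only Tsc22d3 passed the genotype test. Tsc22d3, on the X chromosome at X:140539528-140600659 on the minus strand (GRCm38), encodes GILZ, a leucine zipper protein known to carry part of the hormone's anti-inflammatory action. Neither altered gene lies on that chromosome, Per1 being on chromosome 11 and Per2 on chromosome 1. Over all times Tsc22d3 had a lowest, median and highest level of 35.3, 55.6 and 71.7 CPM in KO, against 25.0, 35.6 and 50.8 CPM in WT.

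At CT19 the 3 libraries had 54.6, 35.3 and 53.1 CPM of Tsc22d3 in KO and 38.7, 39.9 and 50.8 CPM in WT, and the groups overlapped. At CT22 they had 56.6, 54.2 and 71.7 CPM in KO, against 34.0, 26.1 and 30.9 CPM in WT. At CT1 they had 64.0, 63.0 and 49.9 CPM in KO, against 25.0, 32.0 and 33.2 CPM in WT. At both of these times the lowest KO library stood well above the highest WT library. At CT10 the libraries had 60.4, 58.8 and 49.7 CPM in KO and 38.1, 37.9 and 37.3 CPM in WT, again without overlap.

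On the mean of the 4 times, Tsc22d3 was higher in KO by log2 0.67 (SE 0.0906, Benjamini-Hochberg adjusted p = 8.8e-05 over all genes, edgeR quasi-likelihood test). It was the 1 of 8 members called on a background of 0.375% of the genes tested. By time, edgeR gave a KO minus WT difference of log2 0.14 at CT19 (SE 0.18, adjusted p = 1), 1.00 at CT22 (SE 0.182, adjusted p = 0.0099), 0.97 at CT1 (SE 0.182, adjusted p = 0.013) and 0.58 at CT10 (SE 0.181, adjusted p = 0.13). The background at these times was 0.0691%, 0.227%, 0.533% and 0.0345% of genes called, with 0, 1, 1 and 0 of the 8 members called. Whether the Tsc22d3 difference varied over the times was tested directly and did not pass in edgeR (interaction range log2 0.86, adjusted p = 0.083).

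Both single-time calls of Tsc22d3 depended on single libraries and on the fit. Without WT CT22 replicate 6 the CT22 call ended (log2 1.02, adjusted p = 0.077). Without KO CT1 replicate 1 or without WT CT1 replicate 2 the CT1 call ended (log2 0.90 and 0.86, adjusted p = 0.052 and 0.099). The replicate block ended both calls (adjusted p = 0.42 at CT22 and 0.43 at CT1), as did single-eye libraries only (0.051 and 0.11), and a fit of the libraries of that time alone ended the CT22 call (0.36). That block fits a term for each replicate label. KO CT22 replicate 1and4, WT CT22 replicate 6, KO CT1 replicate 4and6 and WT CT1 replicate 3and6 share their label with no other library. They add nothing to the block fit, so its groups at CT22 and CT1 rest on fewer libraries. The genotype average held without any one of the 24 libraries, at log2 0.63 to 0.70.

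The promoter table (RefSeq, GRCm38.p6, 250 bases before to 50 after each start) held 14 windows for 6 of the 8 genes, with no entry for Zbtb16 and Nr3c1. They were searched on both strands for the core of the glucocorticoid response element, GNACA and TGTNC separated by 3 bases, and for its half-site TGTTCT. The core occurred in 0.475% of the 32851 promoters of the table and the half-site in 19%. Among the 14 windows, the core occurred in 1, upstream of Sgk1, and the window of Tsc22d3 furthest upstream held a half-site. These windows are shown because Tsc22d3 is the gene that passed the genotype test and Sgk1 the one with a complete core. Capitals mark the core in Sgk1 and the half-site in Tsc22d3. The Sgk1 window is chr10:21993640-21993939 on the plus strand, with the core at position -188 from the start, and the Tsc22d3 window is chrX:140600473-140600772 on the minus strand, with the half-site at position -185.
Sgk1: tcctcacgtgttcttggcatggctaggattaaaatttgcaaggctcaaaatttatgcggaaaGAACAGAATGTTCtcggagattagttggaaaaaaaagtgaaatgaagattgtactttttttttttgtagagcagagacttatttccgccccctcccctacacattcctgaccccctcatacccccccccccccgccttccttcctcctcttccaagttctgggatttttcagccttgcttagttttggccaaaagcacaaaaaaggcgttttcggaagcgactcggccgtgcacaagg
Tsc22d3: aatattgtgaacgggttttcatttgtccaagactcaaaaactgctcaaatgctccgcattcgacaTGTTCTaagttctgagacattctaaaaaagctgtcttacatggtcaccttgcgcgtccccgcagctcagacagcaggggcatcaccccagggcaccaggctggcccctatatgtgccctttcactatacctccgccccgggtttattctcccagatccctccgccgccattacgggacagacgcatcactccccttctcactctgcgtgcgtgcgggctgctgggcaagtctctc
Half-sites were in 4 of the 14 windows, 3 of them windows of Sgk1, and half-sites on both strands overlap the core shown. The E-box CACGTG, the element of clock activators, occurred in 7.15% of all promoters, and among these genes in the Fkbp5 window at position -169 and in the same Sgk1 window, where it overlaps a further half-site. The cAMP response element TGACGTCA (1.79% of promoters) occurred in a window of Errfi1 at position -51. None of these elements, nor the D-box (0.938% of promoters), was found in the windows of Klf9 and Ddit4, and a match is a description of letters only.

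The receptor gene itself, Nr3c1, had a lowest, median and highest level of 58.7, 65.3 and 81.1 CPM in KO and 51.3, 63.4 and 77.6 CPM in WT, so the genotypes covered nearly the same range. Its KO minus WT difference was log2 0.06 on average (SE 0.0823, edgeR adjusted p = 0.94) and between -0.16 and 0.22 at single times. No test of Nr3c1 over genotype or time passed.

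Fkbp5 encodes FKBP51, a co-chaperone that lowers the receptor's affinity for hormone and is itself induced by the hormone. At CT22 its libraries had 17.1, 32.7 and 14.5 CPM in KO, against 12.7, 11.1 and 11.4 CPM in WT. At CT1 they had 13, 14.5 and 18.7 CPM in KO, against 21.2, 25.7 and 18.9 CPM in WT. KO lay above WT at the first of these times and below it at the second, narrowly, with 1 KO library far above the others at CT22. In edgeR the differences were log2 0.87 at CT22 (SE 0.321, adjusted p = 0.25) and -0.51 at CT1 (SE 0.319, adjusted p = 0.39), and neither passed. Without KO CT22 replicate 2, the library with 32.7 CPM, the CT22 difference was log2 0.405 (adjusted p = 1). At CT19 the spread within WT (10.7, 14.6 and 33.5 CPM) was wider than any difference between genotypes.

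Sgk1 encodes a kinase that raises sodium channels and transporters at the cell surface. Its lowest, median and highest levels were 744, 934 and 1322 CPM in KO and 625, 811 and 1268 CPM in WT, and the genotypes overlapped at all 4 times. The KO minus WT difference was log2 0.17 on average (SE 0.115, edgeR adjusted p = 0.85) and between -0.06 and 0.36 at single times.

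Klf9, a zinc finger transcription factor, and Zbtb16, a BTB zinc finger repressor also called PLZF, are transcriptional regulators induced by the hormone. Klf9 at CT22 had 131.9, 163.4 and 143.5 CPM in KO, against 89.3, 123.9 and 76.2 CPM in WT. At CT1 Klf9 had 88.3, 87.8 and 101.2 CPM in KO, against 150.6, 141.9 and 128.1 CPM in WT. The groups did not overlap at either time and stood in opposite order, while at CT19 and CT10 they overlapped.

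The KO minus WT difference of Klf9 was log2 0.60 at CT22 (SE 0.199, edgeR adjusted p = 0.21) and -0.60 at CT1 (SE 0.199, adjusted p = 0.11), with -0.03 at CT19 and -0.01 at CT10. The interaction test of Klf9 missed the threshold in edgeR (range log2 1.20, adjusted p = 0.055) and passed it in DESeq2 (range 1.14, adjusted p = 0.02). It also passed in edgeR without KO CT22 replicate 1and4, KO CT19 replicate 2 or WT CT22 replicate 3, at log2 1.27, 1.21 and 1.41. It was further from passing with the rod score as a covariate (log2 0.64, adjusted p = 0.59), with the replicate block (1.14, adjusted p = 0.4) and with single-eye libraries only (1.16, adjusted p = 0.21). Zbtb16 had only 15 to 194 counts per library. Its lowest, median and highest levels were 0.682, 2.55 and 8.04 CPM in KO and 0.760, 3.29 and 5.80 CPM in WT, and its differences at single times had an SE of 0.646 to 0.661, the widest of the 8 genes.

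Errfi1 and Ddit4 encode inhibitors of growth signalling. Errfi1 (MIG6), an inhibitor of the EGF receptor, had a lowest, median and highest level of 30.5, 34.8 and 46.0 CPM in KO and 25.2, 34.8 and 42.6 CPM in WT, and overlapped at every time. Its KO minus WT difference was log2 0.11 on average (SE 0.088, edgeR adjusted p = 0.89). Ddit4 (REDD1), an inhibitor of mTORC1 that low oxygen and the integrated stress response also induce, had KO below WT at some times and above it at another. At CT19 Ddit4 had 90.9, 121.04 and 97.0 CPM in KO, against 129.0, 130.7 and 141.8 CPM in WT. At CT1 it had 89.6, 76.5 and 88.7 CPM in KO, against 137.9, 107.9 and 102.8 CPM in WT. KO lay below WT at both times. At CT10 the order was opposite, with 102.6, 101.4 and 94.9 CPM in KO, against 69.4, 84.3 and 82.9 CPM in WT.

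None of these Ddit4 differences passed in edgeR: they were log2 -0.38 at CT19 (SE 0.156, adjusted p = 1), -0.45 at CT1 (SE 0.156, adjusted p = 0.12) and 0.34 at CT10 (SE 0.156, adjusted p = 0.26). Counted over the 8 genes, KO and WT libraries did not overlap for 1 at CT19, 3 at CT22, 4 at CT1 and 2 at CT10. The same held for 9.27%, 12.8%, 24.7% and 30.2% of all genes tested, so at CT10 the share of members was below the background.

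**Figure D2:**
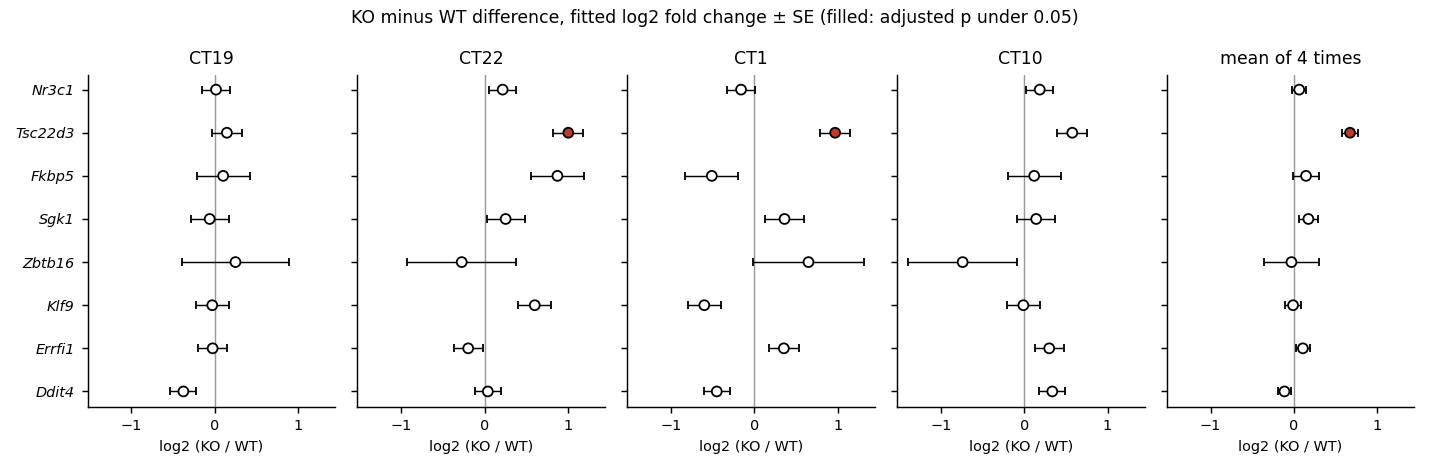
Fitted KO minus WT difference (log2 fold change, x axis) of each gene at each circadian time and averaged over the 4 times, with the SE. Filled points have a Benjamini-Hochberg adjusted p under 0.05 in edgeR, which is Tsc22d3 at CT22, at CT1 and on average.

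At CT22 and CT1 the rod sums stood in the same order as several of these values. The median rod sum was higher in KO at CT22 and lower at CT1, the same order as the Fkbp5 and Klf9 levels, whereas Tsc22d3 was higher in KO at both times. The median rod sum was also higher in KO at CT19 (61100 CPM, against 42200 in WT) and CT10 (45600, against 40900). There Klf9 differed by log2 -0.03 and -0.01, and Fkbp5 by 0.10 and 0.12. With the rod score (mean log2(CPM + 1) of the 19 rod markers) as a covariate in edgeR, the Tsc22d3 difference was log2 1.34 at CT22 (adjusted p = 0.00021) and 0.57 at CT1 (adjusted p = 0.62, no longer called). Its genotype average was log2 0.72 with that covariate (adjusted p = 6.8e-07). With the same covariate the Fkbp5 difference was log2 0.07 at CT22 and 0.28 at CT1, and the Klf9 difference was log2 0.36 at CT22 and -0.29 at CT1, none of them called. At CT1 the rod score itself did not overlap between genotypes (9.76 to 9.95 in KO, 10.84 to 11.35 in WT). The covariate values at CT1 therefore rest on a slope fitted within groups and cannot tell genotype from rod content.

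The same relation was measured among libraries of the same genotype and time, after the group means were taken off both measures. Over the 24 libraries, Tsc22d3 ran against the rod score (Pearson r = -0.726, Spearman rho = -0.72, permutation p = 0.00012 and 0.00054 within groups, adjusted over 8 genes 0.00096 and 0.00432). Sgk1 did so too (r = -0.632, rho = -0.625, permutation p = 0.00511 and 0.00501, adjusted 0.0204 and 0.02). Fkbp5 ran with the rod score by Pearson's measure but missed the threshold by Spearman's (r = 0.697, rho = 0.534, permutation p = 0.00809 and 0.0334, adjusted 0.0216 and 0.0667). Without the 2 libraries farthest from the median rod score, r was -0.721 for Tsc22d3, -0.636 for Sgk1 and 0.702 for Fkbp5.

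For the other 5 genes r lay between -0.486 (Zbtb16) and 0.574 (Nr3c1), and none passed the adjustment by either measure. All CPM values of a library share its total. The share of all genes that would pass the same correlation test is not given here, so these correlations are not shown to be particular to these genes. How much of each genotype difference goes with rod RNA was not tested beyond these values.

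**Figure D3:**
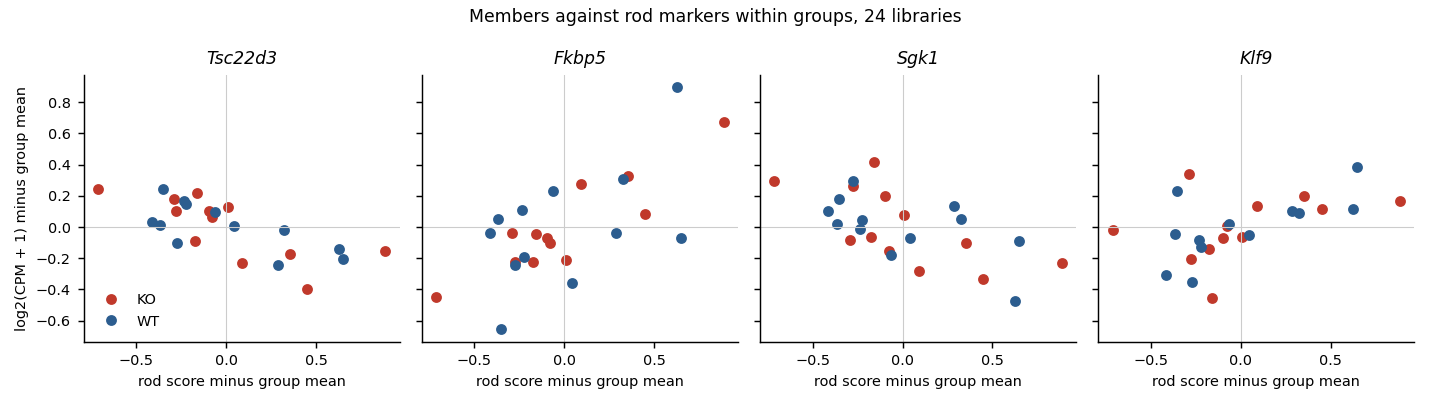
Level of 4 genes (log2(CPM + 1) minus the group mean, y axis) against the rod score minus its group mean (x axis) in the 24 libraries, KO red and WT blue. Tsc22d3 and Sgk1 slope down (r = -0.726 and -0.632), Fkbp5 slopes up (r = 0.697) and Klf9 less so (r = 0.513).

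Among the members themselves, 28 pairs were compared in the same way, and 0 passed Benjamini-Hochberg adjustment over the 28. The strongest positive pair was Sgk1 with Errfi1 (r = 0.63, rho = 0.646, permutation p = 0.0048 and 0.00397, Pearson adjusted 0.0893; r = 0.54 without the 2 farthest libraries). The strongest negative pair was Fkbp5 with Sgk1 (r = -0.665, rho = -0.613, permutation p = 0.00638 and 0.00812, Pearson adjusted 0.0893; r = -0.498 without the 2 farthest libraries). Both signs were common, since 13 of the 28 values of r were positive and 15 negative. The receptor gene Nr3c1 was positive with Fkbp5 (0.33), Klf9 (0.337), Ddit4 (0.494) and Errfi1 (0.155), and negative with Tsc22d3 (-0.268), Sgk1 (-0.326) and Zbtb16 (-0.328).

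**Figure D4:**
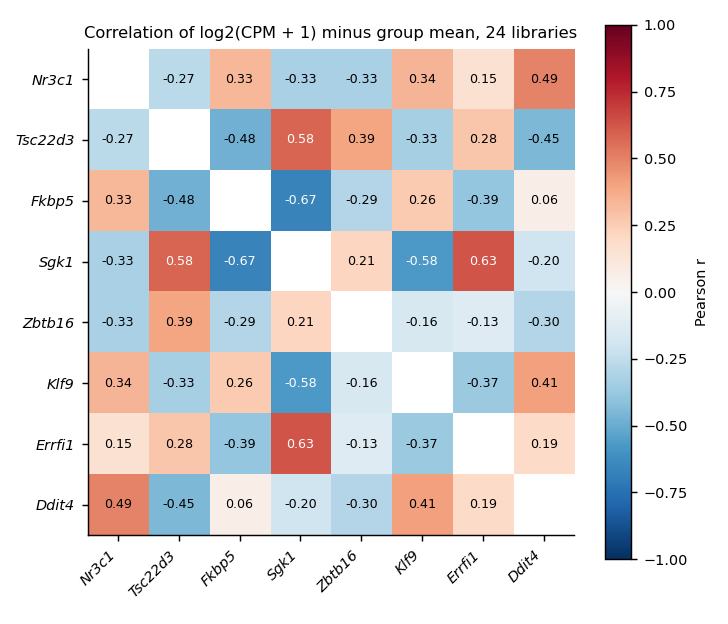
Pearson r between each pair of the 8 genes over 24 libraries, after the mean of each genotype and time group was taken off log2(CPM + 1). Red is positive and blue negative, and the strongest values are Fkbp5 with Sgk1 (-0.67) and Sgk1 with Errfi1 (0.63).

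Change over the day was tested within each genotype. In KO, 0 of the 8 genes passed, on a background of 0% of genes in edgeR, where 2364 genes (11.7%) had an unadjusted p under 0.05 and DESeq2 called 284. The 1 member at an unadjusted p under 0.05 in KO was Klf9 (range log2 0.66, adjusted p = 0.34). In WT, 0 of the 8 passed on a background of 0.947%. Ddit4 came nearest, with means of 133.8 ± 6.96 CPM at CT19, 107.6 ± 4.83 at CT22, 116.2 ± 18.95 at CT1 and 78.9 ± 8.24 at CT10 (SD, n = 3 each). Its WT range of log2 0.76 missed the threshold in edgeR (adjusted p = 0.052) and passed it in DESeq2 (adjusted p = 0.012) and in edgeR without KO CT22 replicate 2 (log2 0.70, adjusted p = 0.037).

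The interaction of genotype and time called 0 of the 8 members on a background of 4.62% in edgeR. After Klf9, the smallest adjusted p-values were 0.064 for Ddit4 (range log2 0.79) and 0.083 for Tsc22d3.

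CT10 is the sampled time closest to the known evening rise of corticosterone in nocturnal mice, and hormone itself was not measured. In KO, none of the 8 genes was called for CT10 against the mean of the other times (background 0.00986%), with values of log2 -0.36 for Zbtb16 to 0.16 for Errfi1. In WT, 1 of the 8 was called on a background of 2.26%: Ddit4 was lower at CT10 by log2 -0.59 (SE 0.132, edgeR adjusted p = 0.022). This call ended on leaving out any of 7 WT libraries (CT10 replicates 1, 2 and 4, CT19 replicates 1 and 4, CT22 replicate 3 or CT1 replicate 2), with values of log2 -0.48 to -0.60 and adjusted p from 0.052 to 0.20. In WT the summed inner retina markers (16 of 16 tested) ran from 4100 to 4630 CPM at CT10 and from 4620 to 7380 CPM at the other times. These markers include Rlbp1, which is also counted as an RPE marker, and Glul, also listed as induced by glucocorticoids. The sum is therefore not a measure of inner retina alone, and its part in the Ddit4 value was not tested. The same WT contrast was log2 0.15 for Tsc22d3 (SE 0.146), 0.13 for Fkbp5 (SE 0.258) and -0.02 for Sgk1 (SE 0.187), none of them called.

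The difference between the genotypes in this CT10 contrast called 0 of the 8 members on a background of 0.247%. For Ddit4 it was log2 0.60 (SE 0.18, edgeR adjusted p = 0.097), since Ddit4 stood at log2 0.01 (SE 0.127) in KO and -0.59 in WT.

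**Figure D5:**
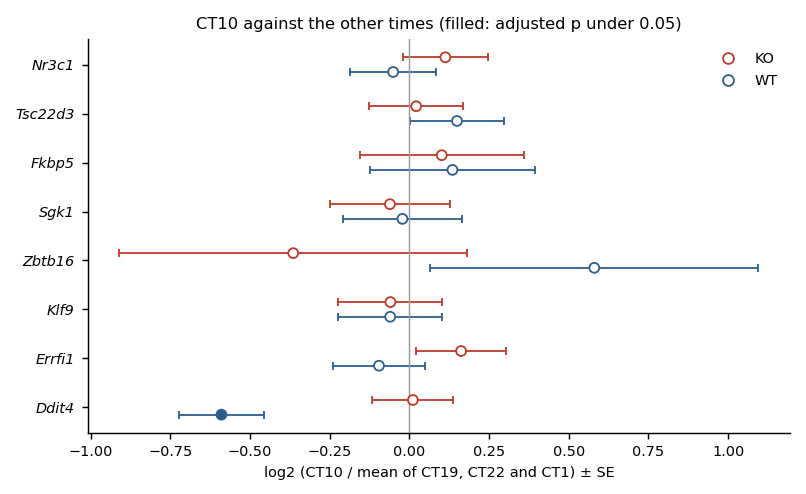
Fitted log2 ratio of CT10 to the mean of CT19, CT22 and CT1 (x axis, with SE) for each gene, KO (red, upper) and WT (blue, lower). The filled point, Ddit4 in WT at -0.59, is the one with an adjusted p under 0.05, and the remaining points have an adjusted p of 0.53 or more.

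Other genes of the pathway were counted from lists chosen by function. Of 29 genes of the receptor pathway (receptors, hormone-converting enzymes, chaperones, coregulators, and including Nr3c1 and Fkbp5), 28 were tested. None passed in the genotype average, where 0.375% of all genes passed, so a count of 0 among 28 says little about them. Their median there was log2 0.00 against 0.02 over all genes. The mineralocorticoid receptor gene Nr3c2, whose product binds the same hormone, averaged 1.89 CPM per kb, below Nr3c1. Hsd11b1, whose enzyme regenerates active hormone, averaged 0.75 CPM per kb, and Hsd11b2, whose enzyme inactivates it, had at most 2 counts in any library and was not tested.

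Of the 28 receptor pathway genes tested, 3 passed the interaction in edgeR, where 4.62% of all genes passed. They included the chaperone Hsp90aa1 (range log2 1.22, edgeR adjusted p = 0.0398) and the co-chaperone Bag1 (1.01, adjusted p = 0.0427). At CT1 Hsp90aa1 had 776.8 ± 81.3 CPM in KO, against 1334 ± 108 CPM in WT, and at CT10 it had 1101 ± 77.2 CPM in KO, against 812.4 ± 85.1 CPM in WT (SD, n = 3 each). Of the 19 rod markers, 14 passed the same interaction test. The rod sums at CT1, lower in KO without overlap, were in the same order as Hsp90aa1. At CT19 the median rod sum was higher in KO, whereas Hsp90aa1 had 1157 ± 142 CPM in KO, against 1316 ± 168 CPM in WT. The part of rod RNA in the Hsp90aa1 and Bag1 values was not tested. The co-chaperone Stip1 was lower at CT10 in WT (log2 -0.59, SE 0.149, edgeR adjusted p = 0.0386), the 1 of the 28 called there on a background of 2.26%.

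Of 45 other genes known to be induced by glucocorticoids, 43 were tested and 3 passed in the genotype average, on a background of 0.375% of all genes. Per1 (log2 1.23) and Cry2 (0.72) were higher in KO and Nfil3 (-0.80) was lower. All 3 are also clock genes, and Per1 is itself a gene altered in KO. The median of the 43 was log2 0.01, against 0.02 over all genes. In WT, 3 of the 43 passed the time effect, on a background of 0.947%: Per1, Nfil3 and Map3k6, a stress kinase. Map3k6 had 3.72 ± 1.09 CPM in KO at CT10, against 13.3 ± 5.62 CPM in WT, and at the other times its means were 4.02 to 6.19 CPM in KO and 2.92 to 4.20 CPM in WT. CT10 against the other times in WT called 4 of the 43, on a background of 2.26%. Map3k6 (log2 1.92, SE 0.348, edgeR adjusted p = 0.00726), Per1 (1.65) and Cry2 (0.61) were higher at CT10, and Nfil3 (-1.53) was lower. The median of the 43 in that contrast was log2 -0.14, against -0.04 over all genes. The interaction called 3 of the 43, on a background of 4.62%, among them Map3k6 (range 2.83, edgeR adjusted p = 0.0414).

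The median KO minus WT difference of all 8 was log2 0.09 on the genotype average, against 0.02 over all genes. Of 12 inflammatory genes repressed by glucocorticoids, 11 were tested and 0 passed in the genotype average (edgeR), where 0.375% of all genes passed. Their summed level was only 11.5 to 61.9 CPM per library. With so low a share and level, a count of 0 does not show that these genes were unchanged.

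By likeness of log2(CPM + 1) over the 24 libraries among 11567 genes, Tsc22d3 was followed most closely by Coq10b (r = 0.837), Plekho2 (0.83) and the clock repressor Bhlhe41 (0.822). Sgk1 was followed by Slc30a5 (0.863), Slc18b1 (0.862) and Rrh (0.858), which encodes the RPE opsin peropsin. Ddit4 was followed by Hdac2 (0.873), Hsp90aa1 (0.864) and Mrpl45 (0.851), and Klf9 by Cnrip1 (0.873), Hnrnpd (0.857) and Tmem243 (0.841). For the other 4 genes the closest were Tmem150c for Fkbp5 (0.863), Rilp for Zbtb16 (0.741), Arsk for Errfi1 (0.858) and Rapgef5 for Nr3c1 (0.827). These values share libraries, depth and genotype, and are a description.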

How the data were processed

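The authors deposited raw read counts per gene, whole numbers with no normalization, for 24 libraries. The tools listed, per the submitters' processing notes, are HTSeq 0.11, HISAT2 2.1.0, Trimmomatic 0.32 and Cufflinks, on build GRCm38.p6. Their order, the annotation and the strand setting are not given in the sources used here. No exon of the 8 genes overlapped another annotated gene (GENCODE, GRCm38). Columns without a sample numbered 0.

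Tests used edgeR 4.0.16 (R 4.3.3): filterByExpr over the 8 groups (minimum count 10), TMM scaling, and 1 robust quasi-likelihood model of the 8 group means with 16 residual degrees of freedom. Calls are Benjamini-Hochberg adjusted p under 0.05 over 20275 genes. A time effect or interaction is given as the log2 range of fitted values. Correlations used log2(CPM + 1) minus group means, with 100000 permutations within groups, two-sided. The fit was tested on simulated data. DESeq2 1.42.0 and the other alternatives are in the closing section.

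All 8 members were named, other listed genes only where they passed, and the 3 genes most like each member by r; 1 listed gene that passed is not reported here. The members and lists were chosen with earlier results of these data known, and the correlation with the rod score was added after seeing the data. Closest libraries of a group differed by a chi-square of 25.4 per degree of freedom, so none was a repeat sequencing of another library of its group. This does not tell whether libraries shared an animal.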

Additional observations from a re-analysis of the deposited data

How the results depend on the processing

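The Tsc22d3 genotype average kept its call in all 33 alternatives (log2 0.63 to 0.76), and no value that was called changed sign. The 7 libraries that each ended the Ddit4 call, and the 3 that each ended a Tsc22d3 call, are named above. The number of members called changed as follows. At CT22 it was 1 and became 0 with the replicate block, with single-eye libraries only and with the libraries of that time only, where Tsc22d3 had log2 1.15, 1.02 and 0.97 (adjusted p = 0.42, 0.051 and 0.36), and 2 without a filter on low counts, with Fkbp5 added. At CT1 it was 1 and became 0 with the replicate block, with the rod score and with single-eye libraries only, where Tsc22d3 had log2 0.88, 0.57 and 1.01. At CT10 it was 0 and became 1 with the rod score (Tsc22d3, log2 0.68). For the time effect in WT it was 0 and became 1 with DESeq2 or the rod score (Ddit4) and 2 with the choroid score (Ddit4 and Tsc22d3). For the interaction it was 0 and became 2 with DESeq2 (Klf9 and Tsc22d3), 2 without a filter (Klf9 and Fkbp5) and 1 under a filter of 5 CPM on the mean level (Tsc22d3), which drops Zbtb16. For the CT10 contrast between genotypes it was 0 and became 1 with the choroid score (Ddit4, log2 0.61). Leaving out 1 library at a time gave 0 to 1 members called at CT22, at CT1, for the time effect in WT, for CT10 in WT and for the interaction. The cause of these changes was not tested.

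Counts of all genes called moved by more than 1.5 times in every comparison under some alternative. Leaving out libraries gave 12 to 316 at CT22 (46 with all), 20 to 788 at CT1 (108), 16 to 686 for the time effect in WT (192), 31 to 724 for CT10 in WT (458) and 20 to 1688 for the interaction (937). DESeq2 called 169 genes on the genotype average (edgeR 76), 39, 275, 1081 and 750 at CT19, CT22, CT1 and CT10 (edgeR 14, 46, 108 and 7), 1409 for the time effect in WT, 2455 for the interaction, 16 for CT10 in KO (edgeR 2), 1351 for CT10 in WT and 955 for the CT10 contrast between genotypes (edgeR 50). RLE scaling moved the median of all genes by log2 -0.105 in the CT10 contrast between genotypes, where Ddit4 became 0.496, against 0.60 under TMM scaling.

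The numbers in the titles, which the labels do not explain, gave no clear pairing of the libraries. The 30 same-numbered pairs correlated at -0.21 to 0.42 (median 0.011), with 7 over 0.1, and differently numbered pairs had a median of -0.015. The replicate block leaves 7 residual degrees of freedom and sets aside the libraries whose label no other library has. With it the Tsc22d3 genotype average was log2 0.749 (edgeR adjusted p = 0.024), and 36 genes were called on that average and 3 in the interaction.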

Other observations

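Genes of the 2 other responses that Ddit4 belongs to were also counted. Of 12 genes induced by low oxygen, 11 were tested and 3 passed the interaction in edgeR, where 4.62% of all genes passed: the angiogenic factor Vegfa (range log2 1.55, adjusted p = 0.0257), the mitophagy receptor Bnip3 (1.86, adjusted p = 0.0314) and the hexokinase Hk2 (1.98, adjusted p = 0.0443). At CT1 Vegfa had 1101 ± 46.2 CPM in KO, against 567.9 ± 97.0 CPM in WT, whereas Hk2 had 288.2 ± 12.1 CPM in KO, against 677.1 ± 122.5 CPM in WT (SD, n = 3 each). Ndrg1, the one gene of this list called at CT1, had 101.7 ± 25.5 CPM in KO, against 233.8 ± 48.8 CPM in WT (log2 -1.20, SE 0.259, edgeR adjusted p = 0.031), and Bnip3 had 12.9 ± 3.40 CPM in KO, against 23.8 ± 2.47 CPM in WT. The median of the 11 genes at CT1 was log2 -0.55, against -0.01 over all genes, and Vegfa lay on the other side. Ddit4 at that time was log2 -0.45 and did not pass. The rod sums at CT1, lower in KO without overlap, were in the same order as Hk2, Ndrg1 and Bnip3, and their part in these values was not tested.

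Of 12 integrated stress response genes, all tested, 1 passed the interaction, the stress-induced transcription factor Atf3 (range log2 3.11, edgeR adjusted p = 0.0461). Over all genes 4.62% passed that test. Atf3 had 1.95 ± 0.558 CPM in KO at CT1, against 6.19 ± 2.50 CPM in WT, and 6.04 ± 2.69 CPM in KO at CT10, against 2.20 ± 0.799 CPM in WT (SD, n = 3 each). The rod sums at CT1 were in the same order as Atf3, and their part in its values was not tested. None of the 12 passed in the genotype average, where 0.375% of all genes passed.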
